A study of Mus musculus with 33 samples.

Results

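Regions of open chromatin that were found in adult liver endothelial cells with added Runx1, and that had no counterpart in the control, numbered 12235. They are the peaks of the Liver 2Runx1 ATAC-seq list that overlap no peak of the Liver Ctrl list by 1 bp or more, and are called gained peaks here. They made up 31.0% of the 39469 peaks in the Liver 2Runx1 list. The 7 ATAC-seq lists of the series hold 551980 peaks in all. The other 27234 peaks of the Liver 2Runx1 list overlapped a Liver Ctrl peak and are called kept peaks. In the opposite direction, 11769 of the 39019 Liver Ctrl peaks (30.2%) overlapped no Liver 2Runx1 peak and are called Liver Ctrl only peaks. The gained peaks were chosen by measured values, the presence of a peak in 1 list and its absence from the other, so that difference is a description and was not tested.

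ATAC-seq marks open chromatin through the insertion of adapters by a transposase. In every group endothelial cells were sorted as CD41-CD45-Ter119-CD31+VEC+cKIT lo/+, with 50000 cells per ATAC-seq library. Liver Ctrl mice carried the allele labelled CKI (CKI/CKI or CKI/+), and their labels name no Cre. Liver 2Runx1 mice carried Cre and CKI/CKI, so the effects of Cre and of the 2 added Runx1 copies cannot be told apart. Both liver groups were adults of 4 to 6 weeks on a C57BL/6J-129Sv/J background and received 2 mg tamoxifen by oral gavage. The interval between gavage and harvest, and the promoter that drives Cre, are not given in the sources used here. The embryonic groups came from whole fetuses at E13.5 (Ctrl, CKI/CKI or CKI/+; 1Runx1, Cre with CKI/+; 2Runx1, Cre with CKI/CKI) and from whole embryos at E9.5 on a C57BL/6J-129Sv/J x B6C3F1 background (Ctrl, CKI/+; 1Runx1, Cre with CKI/+). The mothers had received 2 mg tamoxifen 24 hours before harvest, and those of the E9.5 embryos had been superovulated. Each ATAC-seq group had 2 libraries that were combined into 1 peak list, so a gained peak has no replicate check. RNA-seq had 2 libraries in each group used here except E13.5 Ctrl, which had 1.

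RUNX1 is a DNA-binding transcription factor that works with its partner CBFB and is required when hemogenic endothelium turns into blood cells in the embryo. It can open or keep open enhancers together with ETS, GATA and AP-1 factors. Adult liver endothelium is mostly sinusoidal, a fenestrated and scavenging type that does not make blood. The question of this comparison is how added Runx1 changed open chromatin in an endothelium past the stage of blood formation, and whether the regions had been open in the embryo.

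Runx1 (ENSMUSG00000022952) stood at 1.19 and 1.53 RPKM (reads corrected for gene length and library depth) in Liver Ctrl and at 78.1 and 78.4 in Liver 2Runx1. The sorted type was visible in all 4 liver RNA libraries: Pecam1, which encodes CD31, ranged from 320 to 360 RPKM, and Kit from 217 to 263. Ptprc, which encodes CD45, ranged from 0.909 to 1.08 RPKM. Itga2b, which encodes CD41, was at 4.03 and 4.39 RPKM in Ctrl and at 9.60 and 9.84 in 2Runx1. Recovered read totals of the 13 RNA libraries lay between 37754246 and 44540403, and ATAC-seq depths are not given in the sources used here. Nothing in the labels ties a replicate to an animal of its own, so the p-values cover the spread among these libraries, which may be technical.

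The following 7 stretches show what gained regions at promoters look like. Each is the 250 bases before a gene start in RefSeq on GRCm38 (GRCm38.p6), read 5′ to 3′ on the strand of the gene. The start regions of 26 near genes called higher or lower in liver RNA were overlapped there by a gained peak and by no kept peak; 19 of those genes were higher and 7 lower. The first set gives the 2 with the largest increase and the 2 with the largest decrease. Capitals mark the bases inside the gained peak.
Slfn9: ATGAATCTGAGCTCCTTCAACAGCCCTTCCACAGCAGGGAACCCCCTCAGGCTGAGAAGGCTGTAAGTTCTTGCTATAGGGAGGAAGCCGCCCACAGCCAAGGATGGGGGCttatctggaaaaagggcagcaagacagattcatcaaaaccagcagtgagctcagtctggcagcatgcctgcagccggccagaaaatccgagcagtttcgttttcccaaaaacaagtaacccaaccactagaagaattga
Lmnb2: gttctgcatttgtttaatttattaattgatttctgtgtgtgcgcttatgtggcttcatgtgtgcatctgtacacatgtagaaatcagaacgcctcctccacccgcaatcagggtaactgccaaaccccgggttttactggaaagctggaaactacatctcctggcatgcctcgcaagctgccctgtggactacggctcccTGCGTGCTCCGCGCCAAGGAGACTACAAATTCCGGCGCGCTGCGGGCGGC
Galnt15: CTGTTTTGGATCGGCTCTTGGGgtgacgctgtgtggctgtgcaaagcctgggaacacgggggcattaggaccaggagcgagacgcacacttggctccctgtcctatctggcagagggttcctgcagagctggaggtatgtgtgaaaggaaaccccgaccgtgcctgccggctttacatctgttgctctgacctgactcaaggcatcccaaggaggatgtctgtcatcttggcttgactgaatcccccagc
Rnf144b: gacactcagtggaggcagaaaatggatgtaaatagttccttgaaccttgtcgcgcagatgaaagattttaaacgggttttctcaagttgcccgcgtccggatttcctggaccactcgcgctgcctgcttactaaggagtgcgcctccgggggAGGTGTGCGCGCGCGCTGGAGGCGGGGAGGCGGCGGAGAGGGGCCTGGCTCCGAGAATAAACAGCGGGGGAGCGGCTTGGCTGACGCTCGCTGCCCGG
The second set gives the 3 with the largest change among the 5 stretches with a RUNX match (TGTGGT or TGCGGT, either strand), and capitals mark the match.
Ppp1r14b: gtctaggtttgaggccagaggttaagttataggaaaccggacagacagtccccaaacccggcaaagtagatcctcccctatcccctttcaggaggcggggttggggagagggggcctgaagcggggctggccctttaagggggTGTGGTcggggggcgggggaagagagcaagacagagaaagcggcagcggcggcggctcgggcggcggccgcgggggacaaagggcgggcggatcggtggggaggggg
Mmp14: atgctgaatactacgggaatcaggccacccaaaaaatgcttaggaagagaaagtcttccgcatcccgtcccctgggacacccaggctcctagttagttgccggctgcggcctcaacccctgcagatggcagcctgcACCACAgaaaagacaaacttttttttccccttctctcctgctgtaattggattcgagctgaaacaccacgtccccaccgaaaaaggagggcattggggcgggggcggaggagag
Uckl1: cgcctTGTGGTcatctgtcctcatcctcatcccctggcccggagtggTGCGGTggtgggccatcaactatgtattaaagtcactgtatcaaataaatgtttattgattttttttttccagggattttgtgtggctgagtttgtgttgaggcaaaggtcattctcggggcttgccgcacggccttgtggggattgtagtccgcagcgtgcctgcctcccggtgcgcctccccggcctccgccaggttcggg

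The Slfn9 stretch lies at chr11:82991831-82992080 on the minus strand, Lmnb2 at chr10:80918246-80918495 (minus), Galnt15 at chr14:32028853-32029102 (plus) and Rnf144b at chr13:47122470-47122719 (plus). The annotated Galnt15 gene begins earlier, at base 32028782, which lies inside the gained peak. Its printed stretch thus lies inside the gene, before a later start. The Ppp1r14b stretch lies at chr19:6974798-6975047 (plus), Mmp14 at chr14:54431348-54431597 (plus) and Uckl1 at chr2:181581974-181582223 (minus). The RUNX match lay inside the gained peak at Mmp14, where its first letter is 114 bases before the start. At Ppp1r14b and Uckl1 the matches lay outside the gained peak. All 7 gained peaks were also present in both embryonic Ctrl lists. Of the 656 gained peaks within 1 kb of a start, 577 were in at least 1 of these lists. No RUNX match was found in the 250 bases of Slfn9, Lmnb2, Galnt15 or Rnf144b, and this says only that these letters are not in those stretches.

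Gained peaks were weak and narrow. Their median −log10 q, the authors' peak significance, was 2.52 with quartiles of 2.22 and 4.03, against 11.5 with quartiles of 6.15 and 23.7 in kept peaks. Their median fold enrichment over background was 4.10, against 8.21 in kept peaks, and their median width was 148 bp against 335 bp. A −log10 q of at least 10 was reached by 204 gained peaks (1.67%) and by 15149 kept peaks (55.6%). In −log10 q, Liver Ctrl only peaks lay between gained and kept peaks, nearer to the gained ones, with a median of 3.59. Of them, 467 (3.97%) reached 10, and their median width was 136 bp, below that of gained peaks. The values were strongly tied: 2396 gained peaks shared the pair of 4.10-fold and 2.52, and 1893 shared 3.42-fold and 1.51.

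The rule has a threshold of 1 shared base. Just inside it, 394 gained peaks (3.22%) had a Liver Ctrl peak within 100 bp, with a median −log10 q of 3.09. Just outside it, 465 kept peaks (1.71%) shared 50 or fewer bases with a Liver Ctrl peak, with a median of 3.61. Most gained peaks were far from any control peak: 7794 (63.7%) had none within 10000 bp. The share of Liver 2Runx1 peaks that were gained ran from 21.9% on chromosome 19 to 41.3% on chromosome 14.

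The strongest gained peak lay at chr1:169517548-169518111, inside the gene body of Nuf2, a kinetochore protein that attaches chromosomes to the spindle. It was 564 bp wide, with a fold enrichment of 19.5 and a −log10 q of 47.5. The next 4 lay at chr8:104050963-104051221, chr8:107002626-107002863 (inside Sntb2), chr6:49008095-49008256 and chr10:112801579-112801827, with −log10 q from 20.3 to 23.8. These 5 were the only gained peaks above a −log10 q of 20, and all 5 were in both embryonic Ctrl lists. The Liver Ctrl peak nearest to the Nuf2 region was 13.2 kb away.

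Of the 12235 gained peaks, 5052 (41.3%) were open in an embryonic Ctrl list, whose labels name no Cre. This share describes the whole of 1 combined list, and other rules for overlap and embryonic peak strength gave 35.2% to 49.6%. The E9.5 Ctrl list held 4454 (36.4%) and the E13.5 Ctrl list 4782 (39.1%). Of the 5052, 4184 (82.8%) were in both lists, 598 in the E13.5 list alone and 270 in the E9.5 list alone. Kept peaks were open in an embryonic Ctrl list in 25443 of 27234 cases (93.4%), and Liver Ctrl only peaks in 6279 of 11769 (53.4%). Each list is 1 combined sample, so the differences between these shares were not tested. The embryonic lists are also larger than the liver lists, with 99298 peaks at E9.5 and 96537 at E13.5, and wider peaks are more likely to overlap another.

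The share open in the embryo rose with the strength of the gained peak. It was 14.6% at a −log10 q under 2, 27.7% from 2 to under 3, 56.2% from 3 to under 5, 82.2% from 5 to under 10 and 89.9% from 10 to under 20. Kept peaks of the same ranges were at 75.4%, 79.0%, 85.4%, 90.7% and 96.1%. Liver Ctrl only peaks followed the gained peaks, at 21.4%, 35.5%, 60.3%, 80.7% and 90.1%. In all 5 ranges the share of gained peaks lay closer to that of Liver Ctrl only peaks than to that of kept peaks.

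**Figure D1:**
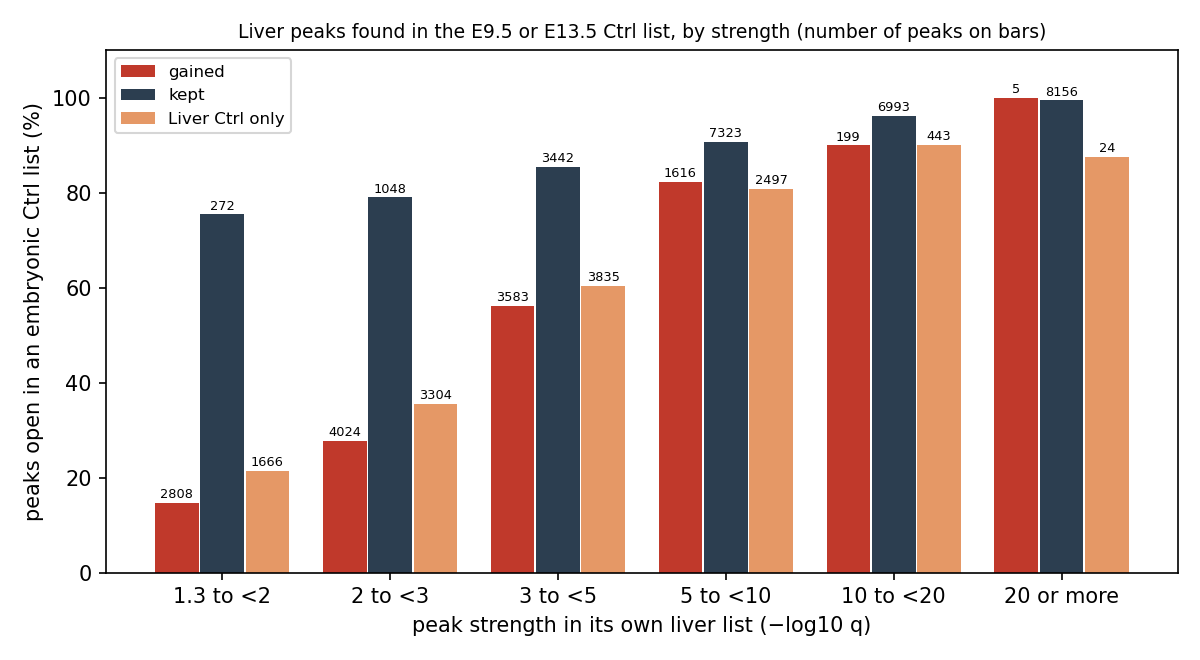
Percent of liver peaks that overlap a peak of the E9.5 or E13.5 Ctrl list (vertical axis, from 0) by their −log10 q in their own liver list (horizontal axis), for gained, kept and Liver Ctrl only peaks. The number of peaks stands on each bar; gained peaks rise from 14.6% in the weakest range to 89.9% from 10 to under 20, while kept peaks start at 75.4%.

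The embryonic Runx1 lists held the gained peaks about as often as the embryonic Ctrl lists. The shares were 36.6% for E9.5 1Runx1, 39.8% for E13.5 1Runx1 and 36.7% for E13.5 2Runx1. Among the 7183 gained peaks (58.7%) in neither embryonic Ctrl list, 6848 were in no embryonic Runx1 list either. The other 335, which are 2.74% of gained peaks, were in 1 or more of the 3 embryonic Runx1 lists. For Liver Ctrl only peaks the matching count was 247 (2.1%), and for kept peaks 275 (1.01%).

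**Figure D2:**
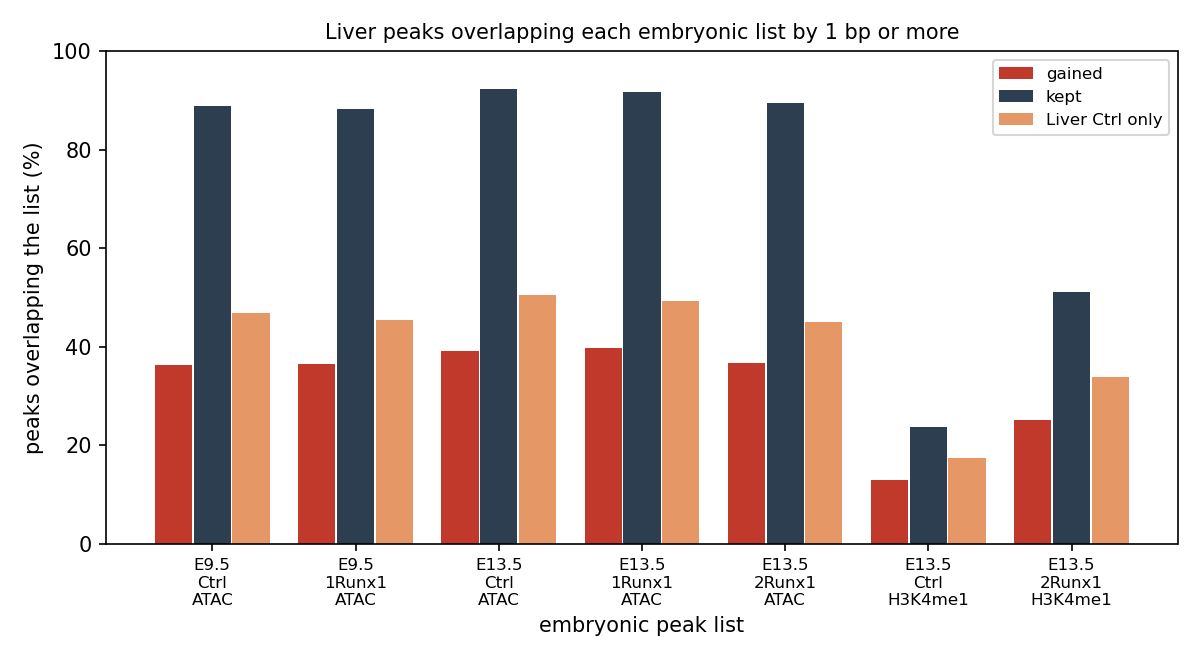
Percent of gained, kept and Liver Ctrl only peaks (vertical axis, from 0) that share 1 bp or more with each embryonic list (horizontal axis). Gained peaks lie between 36.4% and 39.8% in all 5 embryonic ATAC-seq lists, and at 13% and 25.2% in the H3K4me1 lists of Ctrl and 2Runx1.

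A set of 53 gained peaks was in all 3 embryonic Runx1 lists and in neither embryonic Ctrl list, so these regions were listed as open in the 4 Runx1 groups and in none of the 3 Ctrl groups. The reverse, Liver Ctrl only peaks in both embryonic Ctrl lists and in no embryonic Runx1 list, numbered 40. The 53 were weak, with a median −log10 q of 3.61 and a highest value of 8.99, and 33 had their summit inside a gene body. The strongest with a near gene lay at chr9:8017354-8017481, 12.8 kb from the start of Yap1, a coactivator of the Hippo pathway, at a −log10 q of 7.26. Others lay inside Tspan9, a tetraspanin (chr6:128007330-128007504), Wasl, an actin nucleation factor (chr6:24637739-24637879), and Sptbn1, a spectrin (chr11:30182863-30183064).

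Near genes were taken as the gene whose start site in the RefSeq table was closest to the summit, within 50 kb. A gene without a start site there could not be a near gene, even where it was closest. The 53 regions had 32 near genes, of which 22 were tested in liver RNA, 3 were higher and 2 lower in 2Runx1. These counts are 13.6% and 9.09%, beside 17.1% and 8.14% over all 12546 genes tested. Fxyd6, which encodes a regulator of the sodium pump, was at 39.1 and 39.0 RPKM in Ctrl and at 103 and 99.9 in 2Runx1, and its region at chr9:45378735-45378896 lies inside the gene. Its log2 difference was 1.35 ± 0.09 (SE). F2r, the thrombin receptor PAR1, was at 356 and 326 RPKM in Ctrl and 461 and 463 in 2Runx1, and Mex3b, an RNA-binding protein, at 4.11 and 3.46 against 7.53 and 7.45. The receptor tyrosine kinase Axl fell from 8.18 and 7.30 to 5.73 and 5.26 RPKM, and Shroom2, an actin-binding protein, from 19.1 and 17.6 to 13.9 and 12.1. Yap1 itself was at 7.96 and 7.69 against 8.07 and 7.56, a log2 difference of 0.00 ± 0.11. Of the 5 called genes, Axl was closest to the threshold (adjusted p = 0.044).

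H3K4me1, a histone mark of enhancers, was available from E13.5 only. Of the gained peaks open in an embryonic Ctrl list, 28.2% overlapped an H3K4me1 region of E13.5 Ctrl and 51.9% one of E13.5 2Runx1. The values in kept peaks open there were 24.8% and 53.1%. Of the gained peaks in neither embryonic Ctrl list, 2.3% and 6.42% overlapped the 2 H3K4me1 lists, against 8.49% and 23.1% of such kept peaks. The 2Runx1 list is longer, with 88344 regions against 48795, and the labels of its ChIP and input libraries appear exchanged, so the 2 lists were not compared with each other.

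Gained peaks lay farther than kept peaks from the start sites of the RefSeq table. That table covers 78.5% of the genes tested, and a gained peak inside Cngb3 was placed 2240 kb from the nearest start. The distances below are therefore upper limits, and the shares within a distance are lower limits. The median distance from summit to the nearest start site was 88.4 kb for gained peaks and 13.3 kb for kept peaks, over the 11810 and 26342 peaks on chromosomes with start sites in the table. Within 1 kb of a start lay 5.55% of gained and 33.8% of kept peaks, and within 50 kb 40.1% and 72.3%. Position differed with embryonic openness: 11.9% of the gained peaks in an embryonic Ctrl list lay within 1 kb of a start, against 1.14% of those in neither. Their median distances were 27.2 kb and 259 kb. The summit was inside a gene body in 65.3% of the former, 34.7% of the latter and 63.6% of kept peaks. Exons and introns were not told apart.

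**Figure D3:**
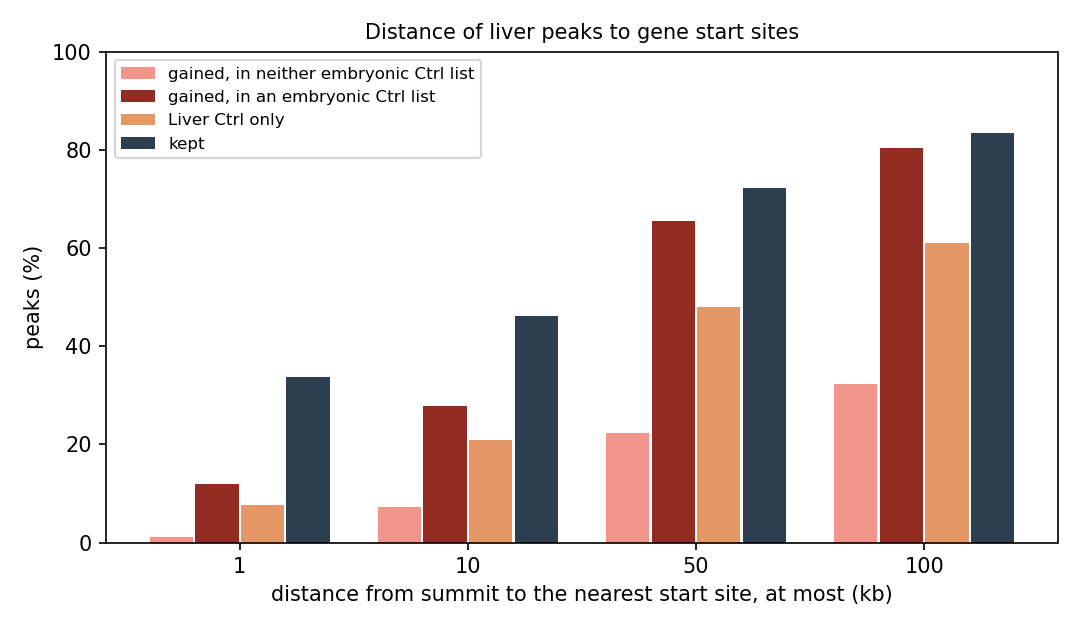
Percent of peaks (vertical axis, from 0) whose summit lies within 1, 10, 50 or 100 kb of a start site of the RefSeq table (horizontal axis). Shown are gained peaks split by presence in an embryonic Ctrl list, Liver Ctrl only peaks and kept peaks. Starts missing from that table make these shares lower limits. Gained peaks in neither embryonic Ctrl list reach 22.3% within 50 kb, and those in such a list 65.5%.

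A total of 4731 gained peaks had a near gene, and these were 3719 genes, 2907 of them with 1 gained peak. The RNA test covered 2286 of the 3719, those that reached 1 RPKM in 2 or more of the 13 libraries, and 352 were listed at 0 in every library. Of the 2286, 382 (16.7%) were higher and 244 (10.7%) lower in Liver 2Runx1 than in Liver Ctrl. Over all 12546 genes tested, 17.1% were higher and 8.14% lower. Over the 9852 tested genes with a start site, from which the near genes came, the shares were 17.7% and 7.83%. The median log2 difference of the near genes was 0.00, with quartiles of -0.14 and 0.15, and that of all genes was 0.02, with quartiles of -0.11 and 0.17. The share higher was near the background and is not a result about the near genes. The share lower was 10.5% near Liver Ctrl only peaks and 7.90% near kept peaks. With quantile normalization the split of the near genes changed to 283 higher and 319 lower, and that of all genes to 1643 and 1374. Leaving out any 1 of the 4 liver libraries lowered the number of calls among near genes and among all genes.

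Subsets of gained peaks were described in the same way. Near gained peaks open in an embryonic Ctrl list, 299 of 1820 tested genes (16.4%) were higher and 193 (10.6%) lower. Among genes whose gained peaks were all absent from the embryonic Ctrl lists, 83 of 466 (17.8%) were higher and 51 (10.9%) lower. Near gained peaks with a −log10 q of at least 10, 14 of 87 (16.1%) were higher and 8 (9.20%) lower. Where the gained peak lay within 1 kb of the start, 70 of 434 (16.1%) were higher and 37 (8.53%) lower. Both shares were lower among genes near a gained peak and no kept peak, with 31 of 279 (11.1%) higher and 19 (6.81%) lower. Of the 107 tested genes near 3 or more gained peaks, 13 (12.1%) were higher and 20 (18.7%) lower, the highest share lower of these 6 subsets. The differences between subsets were not tested.

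**Figure D4:**
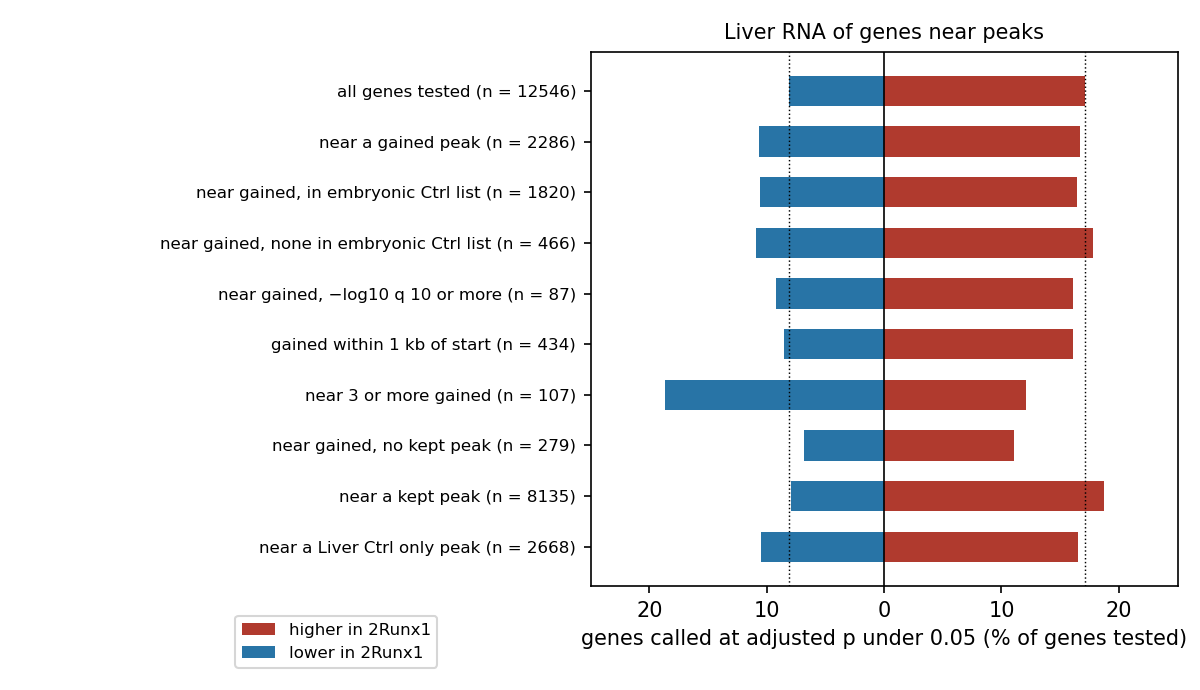
Percent of tested genes called higher (right) or lower (left) in Liver 2Runx1 than in Liver Ctrl, for genes near different sets of peaks, with the number tested in brackets. Dotted lines mark the shares over all genes, 17.1% and 8.14%; the shares higher near gained peaks lie between 11.1% and 17.8%.

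The near genes were also compared between the stages without added Runx1. Between E9.5 Ctrl and Liver Ctrl, 42.7% of all genes were higher and 42.7% lower at E9.5. Of the genes near a gained peak open in an embryonic Ctrl list, 726 of 1820 (39.9%) were higher and 872 (47.9%) lower at E9.5. Where no gained peak of the gene was open there, 143 of 466 (30.7%) were higher and 266 (57.1%) lower. Genes near 3 or more gained peaks had 27 of 107 (25.2%) higher and 74 (69.2%) lower. In each of these 3 sets more genes were higher in adult liver than at E9.5, and genes near Liver Ctrl only peaks leaned the same way, with 37.1% higher and 50.5% lower at E9.5. Other sets leaned the opposite way. Genes near a gained peak and no kept peak had 144 of 279 (51.6%) higher and 97 (34.8%) lower at E9.5. Those near a gained peak with a −log10 q of at least 10 had 43 of 87 (49.4%) higher and 32 (36.8%) lower. This comparison shares the Liver Ctrl libraries with the liver comparison above. At E13.5, 2Runx1 against Ctrl called 5 near genes higher and 2 lower, 0.219% and 0.0875% of the 2286, beside 0.151% and 0.12% over all genes. The difference between the liver and the E13.5 effect of 2Runx1 was called higher for 172 near genes (7.52%) and lower for 87 (3.81%), beside 8.2% and 2.89% over all genes.

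Among the near genes with the largest increases, Pla2g7, which encodes platelet-activating factor acetylhydrolase, came first. It was at 7.91 and 8.10 RPKM in Liver Ctrl and at 71.8 and 72.2 in Liver 2Runx1, a log2 difference of 3.02 ± 0.16 (SE, adjusted p = 4.13e-07). Its gained peak at chr17:43557603-43557855 lay 10.8 kb from the start and was in none of the embryonic lists. F2rl3, the thrombin receptor PAR4, was at 0.548 and 0.622 RPKM in Ctrl and at 8.96 and 7.68 in 2Runx1, with a difference of 2.55 ± 0.08 (adjusted p = 2.49e-08). Its gained peak at chr8:72761816-72761923 lay 0.234 kb from the start, no kept peak was near, and the region was in all 5 embryonic ATAC-seq lists. The gene stood at 15.6 and 16.6 RPKM in E9.5 Ctrl and 6.46 in E13.5 Ctrl, above Liver Ctrl at both stages.

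Stat4, a signal transducer of cytokine receptors, was at 0.0198 and 0.0865 RPKM in Ctrl and 3.36 and 3.54 in 2Runx1 (2.08 ± 0.09). Its region, 10.0 kb from the start at chr1:51996902-51997260, was in all 5 embryonic lists. Madd, a guanine exchange factor for Rab GTPases, was at 5.07 and 4.73 RPKM against 25 and 21.3, and its region 18.4 kb away was in no embryonic ATAC-seq list. Slfn9, a Schlafen family gene whose start region is printed above, was at 1.96 and 1.93 RPKM against 9.30 and 10.5. Abhd15, an alpha/beta hydrolase, was at 0.211 and 0.224 against 2.52 and 2.48. These 4 genes were chosen as called increases, so the gap between their groups is no separate support.

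The other genes whose start regions are printed above changed as follows. Lmnb2, which encodes the nuclear lamin B2, was at 5.85 and 5.88 RPKM in Ctrl and 19.4 and 16.8 in 2Runx1 (1.47 ± 0.08). Ppp1r14b, a phosphatase inhibitor subunit, was at 21.6 and 23.8 against 37.5 and 33.6 (0.62 ± 0.06). Rnf144b, a ubiquitin ligase, fell from 5.54 and 5.95 to 3.64 and 3.16 (-0.62 ± 0.11). Uckl1, of the uridine kinase family, fell from 39.5 and 41.6 to 34.4 and 33.2 (-0.26 ± 0.06, adjusted p = 0.0136). Promoters that share a gained peak and RUNX letters thus stood at genes that rose and at 1 that fell. All of these genes were chosen among called genes.

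The other 6 of the 12 are genes of DNA replication and cell division. Mcm5, a subunit of the replicative helicase, was at 10.2 and 9.76 RPKM in Ctrl and 37.7 and 35.8 in 2Runx1. Cdc45, another helicase component, was at 1.76 and 1.67 against 7.52 and 7.24, and Dtl, a substrate receptor that acts in S phase, at 0.896 and 0.869 against 5.58 and 5.27. Mki67, the proliferation antigen, was at 1.9 and 2.1 against 8.60 and 8.94, and its gained peak lay 0.522 kb from the start. Fignl1, a recombination factor, was at 2.00 and 2.08 against 8.31 and 8.45. Nuf2, which holds the strongest gained peak of all, was at 2.15 and 2.62 against 8.98 and 9.75. Levels in E9.5 Ctrl were higher than in liver in all 6, for example 143 and 136 RPKM for Mcm5 and 26.5 and 26 for Nuf2. The strongest gained peak of each was in the E13.5 Ctrl list, and that of Dtl was missing from the E9.5 Ctrl list. A Liver Ctrl peak lay 0.142 kb from that of Mcm5 and 0.296 kb from that of Mki67. For Fignl1, Dtl, Cdc45 and Nuf2 the gap to a Liver Ctrl peak ran from 2.64 to 13.2 kb. All 6 genes also had kept peaks nearby, with 6 for Mcm5 and 3 for Mki67.

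A list of 14 mitosis genes puts these values in context. All 14 were higher in Liver 2Runx1, with a median log2 difference of 1.71, beside 17.1% higher and a median of 0.02 over all genes. Of the 14, Mki67, Cdk1 and Bub1b were near genes as defined here, and the other 11 were the closest gene of no gained peak in the start-site table. Their summed level was 79.3 and 80.5 RPKM in Ctrl and 207 and 215 in 2Runx1. Cdk1, the kinase that drives entry into mitosis, was at 5.43 and 5.04 against 15.0 and 14.1, and Bub1b, a spindle checkpoint kinase, at 4.37 and 5.1 against 10.2 and 10.9. In bulk samples a change in the number of cells of a type and a change in RNA per cell cannot be told apart.

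Pcp4l1, a small calmodulin-related protein, fell furthest among the near genes, from 13.3 and 13.7 RPKM to 0.851 and 1.28, a log2 difference of -2.82 ± 0.14 (adjusted p = 2.78e-07). It had 2 gained peaks, the stronger one 31.8 kb from the start at chr1:171164395-171164536. Sfn, the 14-3-3 sigma protein, was at 3.43 and 3.68 RPKM in Ctrl and 0.415 and 0.423 in 2Runx1 (-1.68 ± 0.09). Cyp26b1, which degrades retinoic acid, was at 23.4 and 21.1 against 9.02 and 9.31 and had 2 gained and 5 kept peaks. Galnt15, an enzyme that starts O-glycans, was at 4.22 and 3.97 against 1.42 and 1.23, and its gained peak overlapped its start region. Serpina3f, a serine protease inhibitor, was at 162 and 166 against 81.1 and 78.4, and 0.284 kb separated its strongest gained peak from a Liver Ctrl peak. Gm15880, Sgsh, a lysosomal sulfatase, and Alas2, which starts haem synthesis in erythroid cells, completed the 8, with differences of -1.03, -0.97 and -0.86. These 8 genes were chosen as called decreases, so the gap between their groups is no separate support. Gained peaks stood near genes that fell as well as near genes that rose.

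The 5 near genes with the most gained peaks were Mef2c and Mgat4c, with 6 each, and Prr5l, Lamp2 and Plcb4, with 5 each. Mef2c, a transcription factor of the vascular and muscle lineages, was at 29.5 and 29.4 RPKM in Ctrl and 30.2 and 31.1 in 2Runx1. Lamp2, a lysosomal membrane protein, was at 447 and 472 against 412 and 436, and Plcb4, a phospholipase, at 31.5 and 30.3 against 30.2 and 32.1. Prr5l, a component bound to mTOR complex 2, was at 41.1 and 40.7 against 35.6 and 35.0 (-0.21 ± 0.07, adjusted p = 0.0624). None of these 4 was called. Mgat4c, a glycosyltransferase, was listed at 0 in all 4 liver libraries and was not tested, and none of its 6 gained peaks was in an embryonic Ctrl list. Of the genes nearest to the 8 strongest gained peaks, Vps4a, an ATPase of membrane scission, was at 53.0 and 47.1 against 52.2 and 48.7. Pou1f1, a pituitary factor, reached at most 0.0410 RPKM in liver, and 4930563H07Rik and Gm3942 were listed at 0. Of these 5, only Nuf2 and Vps4a were tested, and Nuf2 was called.

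Regulators of hemogenic endothelium and stem cells were present among the near genes in 7 of 21 cases, and 3 of the 7 were higher and 1 lower. Of all 18651 genes with a start site, 3719 were near a gained peak. Over the 18 tested members of the list, 4 were higher and 2 lower, with a median log2 difference of 0.06. Over all genes 17.1% were higher and 8.14% lower, with a median of 0.02, so counts this small are a description only. Cbfb, the partner of RUNX1, was at 34.4 and 33.0 RPKM in Ctrl and 46.8 and 46.9 in 2Runx1 (0.46 ± 0.06, adjusted p = 0.000396). Gata2, a factor of blood stem cells, was at 22.5 and 20.1 against 27.3 and 26.8, with a gained peak of −log10 q 10.3 at 4.61 kb from its start (chr6:88203002-88203308). A Liver Ctrl peak lay 0.151 kb from that gained peak, and 5 kept peaks were near the gene. Meis1 was at 21.6 and 20.6 against 25.7 and 24.8 (0.25 ± 0.08, adjusted p = 0.0426). Erg, an ETS factor that keeps endothelial identity, fell from 23.3 and 22.3 to 13.6 and 15.1 (-0.63 ± 0.07, adjusted p = 0.000118). The call of Gata2 was lost without either 2Runx1 library or Ctrl replicate 2 (adjusted p from 0.0757 to 0.137), and that of Meis1 without any 1 of the 4 libraries (0.0976 to 0.192). Kit, Hhex and Adgrg1 had log2 differences of 0.14, 0.09 and -0.28 and did not pass the test. No gained peak had Runx1 itself as near gene.

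The series title names target genes of TGFβ, a growth factor whose receptors signal through SMAD proteins. Of 25 such targets, 8 were near a gained peak, and 3 of the 8 were higher and none lower, while 6 of 23 tested targets were higher and 2 lower (median 0.05). These counts stand beside 17.1% higher and 8.14% lower over all genes. Of the 18651 genes with a start site, 3719 were near a gained peak. Mmp14, a membrane-bound matrix protease whose start region is printed above, was at 150 and 147 RPKM in Ctrl and 221 and 215 in 2Runx1 (0.55 ± 0.07, adjusted p = 0.00016). Its gained peak at chr14:54431443-54431600 lay 0.082 kb from the start. Tgfbi, a secreted matrix protein, was at 18.3 and 18.6 against 27.9 and 27.5, and Ski, a repressor of SMAD signalling, at 44.3 and 40.8 against 49.5 and 49.1. The call of Tgfbi was lost without any 1 of the 4 libraries (adjusted p from 0.129 to 0.153) and that of Ski without 3 of the 4 (0.0893 to 0.163), whereas Mmp14 stayed called. Ccn1, Cdkn1a, Cdkn2b, Col4a1 and Snai1 had differences between -0.20 and 0.31 and did not pass. The strongest gained peaks of Tgfbi and Ski and the one printed for Mmp14 were in both embryonic Ctrl lists, whereas 1 of the 2 gained peaks of Mmp14 was in neither. Of the 21 pathway components, 4 were near a gained peak (Tgfbr2, Smad5, Smurf2 and Nrros) and none of the 4 was called, while 3 of 20 tested components were higher and 1 lower. The gained peak near Tgfbr2, the type II receptor, had a −log10 q of 9.31, and the gene was at 180 and 164 RPKM against 183 and 168.

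The lists in this paragraph stand beside 17.1% higher and 8.14% lower over all genes. Their counts near a gained peak stand beside 3719 of the 18651 genes with a start site. Members without a start site in the RefSeq table could not count as near. Leukotriene and prostaglandin enzymes had 4 of 11 members near a gained peak, and 3 of 9 tested were higher and none lower (median 0.12). Ltc4s, leukotriene C4 synthase, rose from 29.3 and 30.4 to 74.0 and 80.4 RPKM (1.34 ± 0.14, adjusted p = 7.14e-05). Ptgs1 was at 277 and 266 against 337 and 322 and did not pass (adjusted p = 0.0559). Endothelial identity genes had 6 of 24 members near a gained peak, and over the 24 tested 4 were higher and 7 lower (median -0.12). Of the 6, Flt1 was higher (61.2 and 58.6 against 71.7 and 70.1), Erg, Kdr and Egfl7 were lower, and Tek and Tie1 were not called. Kdr, the main VEGF receptor, was at 1120 and 1010 RPKM in Ctrl and 900 and 818 in 2Runx1. Of the 17 sinusoidal genes, 1 was higher and 3 lower (median -0.11). Of the 6 near a gained peak, Ctsl and Wnt9b were lower and Stab1, Stab2, Mrc1 and Fcgr2b were not called. Ctsl, a lysosomal protease, was at 872 and 916 against 594 and 611. The calls of Flt1, Kdr, Egfl7 and Wnt9b were each lost without 1 library or another, at adjusted p from 0.0898 to 0.193, and under quantile normalization those of Flt1, Kdr and Egfl7 were lost too.

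Markers of other cells moved in part with the groups, and their part in these results was not tested. Over all genes 17.1% were higher and 8.14% lower, and 3719 of the 18651 genes with a start site were near a gained peak. The 15 megakaryocyte and platelet genes summed to 63.5 and 68.9 RPKM in Ctrl and to 111 and 108 in 2Runx1; 3 of the 8 tested were higher, of the 3 near a gained peak 1 was tested and not called, and Gp5, Gp6 and Treml1 were listed at 0. The 11 stellate and mesenchymal genes summed to 124 and 119 against 66.2 and 70.4, 4 of 11 were lower, and Hgf, the member near a gained peak, was at 34.3 and 33.3 against 26.1 and 25.5. The 12 erythroid genes, of which Ahsp has no RPKM value, summed to 36.7 and 35.1 against 23.0 and 20.5. Of the 8 tested, 2 were lower, Alas2 among them, and none higher, with Hba-a1, Hbb-bs and Hbb-bt listed at 0. The 15 hepatocyte genes summed to 163 and 175 against 162 and 162, and Apoa1 (10.5 and 10.9 against 16.2 and 15.6), a near member, was the 1 of 12 tested that was called. The 16 pan-haematopoietic genes summed to 334 and 335 against 301 and 289, with 2 of 13 tested higher and 2 lower. The 18 macrophage and Kupffer cell genes summed to 466 and 499 against 443 and 457, with 1 of 16 tested higher and 2 lower. The 12 lymphocyte genes, of which Ighm has no RPKM value, summed to between 2.03 and 3.73, and the 1 tested was not called. None of the tested near members of the pan-haematopoietic and macrophage lists was called, and no lymphocyte gene was near. The calls of Hgf and Apoa1 were lost without any 1 of the 4 libraries (adjusted p from 0.0688 to 0.11), and that of Alas2 without Ctrl replicate 1 or 2Runx1 replicate 2 (0.0582 and 0.0538).

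Motifs were searched in the 300-base promoter windows of RefSeq, from 250 bases before to 50 after the start, since no genome was at hand for the distal regions that make up most gained peaks. A gained peak and no kept peak overlapped 360 windows, and a kept peak overlapped 10645 of the 32851. The RUNX letters (TGTGGT or TGCGGT, both strands in every search) were found in 20.8% of the former, 20.6% of the latter and 22.4% of all windows. The ETS letters AGGAAG were found in 41.1%, 31.9% and 35.4%, the AP-1 letters TGANTCA in 10.8%, 4.00% and 7.81%, and the GATA letters AGATAA in 9.44%, 5.18% and 11.2%. The E-box letters (CAGATG or CAGCTG) were in 30.6%, 22.2% and 30.6%, the TEAD letters GGAATG in 15.8%, 10.7% and 14.7%, and the IRF letters GAAANNGAA in 9.72%, 6.33% and 8.56%. The CEBP letters TTGCNNAA were in 7.50%, 7.16% and 10.8%, and the SMAD letters GTCTAGAC in 0.833% (3 windows), 0.178% and 0.213%. The median GC content of the 3 sets was 59.0%, 62.7% and 52.7%. In the 27 windows overlapped by gained peaks in neither embryonic Ctrl list, RUNX letters were in 25.9% (7 windows). The other letters there were at 59.3% (ETS), 40.7% (E-box), 25.9% (GATA), 22.2% (CEBP), 18.5% (AP-1), 14.8% (IRF), 11.1% (TEAD) and 0% (SMAD). The 433 windows overlapped by a Liver Ctrl only peak had RUNX letters in 21.5%, ETS in 34.9%, AP-1 in 4.62% and GATA in 8.31%. Promoters with a gained peak thus held RUNX letters about as often as promoters in general, and a match is a description, not a bound site.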

How the data were processed

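Endothelial cells sorted from mouse embryos, fetuses and adult livers were profiled by ATAC-seq, RNA-seq and H3K4me1 ChIP-seq in 33 samples. The submitters' processing notes name, with no role for any of them, bcl2fastq 2.20, Trim Galore 0.6.4, FastQC, Bowtie2 2.3.5.1, SAMtools 1.1, MACS2 2.1.4, deepTools 3.3.0, STAR 2.7.3a, featureCounts, Subread 2.0.0 and edgeR, with mm10 and GRCm38 as builds. The authors' peak lists, deposited as 1 list per group of combined libraries, hold a fold enrichment (a ratio over background), a −log10 q value and a score equal to 10 times the latter, rounded down. No source used here says if ATAC-seq reads were shifted. The authors deposited gene expression as 1 table of RPKM, whose values were whole multiples of what 1 read is worth. Whole reads were recovered for 100% of the 20720 genes above 0, within 0.001 reads.

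Overlap meant 1 shared base or more. Start sites and promoter sequences came from RefSeq (GRCm38.p6), matched by symbol for 9852 of the 12546 genes tested (78.5%), with none on chromosome 18, which holds 425 gained peaks. A nearer gene without a start site in that table could thus be missed. Limma 3.58.1 in R 4.3.3 was fitted with an intensity trend to log2(RPKM + 1) of the 12546 genes that reached 1 RPKM in 2 or more of 13 libraries, with 7 group means. E13.5 Ctrl, with 1 library, took its spread from the other groups. Tests were two-sided, with Benjamini-Hochberg adjustment over all genes tested and a threshold of 0.05. Adjusted p-values come from that fit, ± is the standard error, and differences on the log2(RPKM + 1) scale understate the change of low genes. On simulated data for the liver comparison with 12546 genes, 73.1%, 92.5% and 98.5% of genes changed by 0.5, 1 and 2 on the log2 scale were called. The simulation gave each gene the same mean in all groups, with independent normal noise, and changed 200 genes in Liver 2Runx1. Of its 182 calls, 6 were false. Its settings differ from the data, so these shares are not the power of the real comparison.

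Named near genes were the 12 largest increases and 8 largest decreases among called genes, those nearest to the 8 strongest gained peaks, the 5 with the most gained peaks (ties broken by summed −log10 q) and every called member of the gene lists. Fxyd6, F2r, Mex3b, Axl, Shroom2 and Yap1, and the genes of the printed start regions, were named after their values were seen. The members and lists were chosen with earlier results of these data known. Motifs had been planned for 200-base windows at peak summits and were searched in promoter windows instead, since these are the sequences used here. The sets of RefSeq windows, gene lists and stage comparisons are described by counts beside those over all genes, with no test of a list. Alternatives varied the peak threshold, the overlap, the distance, the pseudocount, the filter, the scaling, the fit and the libraries.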

Additional observations from a re-analysis of the deposited data

Results flagged for a closer look

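The effect of 2Runx1 differed between adult liver and E13.5 in 18 of the 20 near genes with the largest changes, by the interaction contrast of the limma fit (adjusted p from 2.96e-06 to 0.0127). Over all genes, 8.2% were called higher and 2.89% lower in this contrast. The genes were chosen for their change in liver, which the contrast contains, so the count is not independent support. The stages also differ in organ and in the route of tamoxifen, whose effects cannot be told apart from that of stage, and E13.5 Ctrl had 1 library.

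Among genes that rose in liver, the liver effect minus the E13.5 effect, on the log2 scale, was 3.09 for Pla2g7, 1.80 for F2rl3, 1.35 for Madd, 1.60 for Slfn9, 1.67 for Mcm5, 1.79 for Dtl, 1.85 for Mki67, 1.62 for Cdc45, 1.69 for Fignl1, 1.63 for Nuf2 and 1.19 for Abhd15. In F2rl3 and Madd the E13.5 difference was 0.75 and 0.68, and in Mki67, Cdc45 and Nuf2 it was -0.14, 0.01 and -0.01. Stat4 was outside this set: it rose by 2.08 in liver and by 1.94 at E13.5. Among genes that fell in liver, the value was -2.89 for Pcp4l1, -1.36 for Sfn, -1.48 for Cyp26b1, -1.21 for Galnt15, -1.25 for Serpina3f, -1.03 for Gm15880 and -0.73 for Sgsh. Alas2, with -0.86 in liver and -1.09 at E13.5, was outside it. The cause of these differences was not tested.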

How the results depend on the processing

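The number of gained peaks and their openness in the embryo depend on peak strength. Limiting gained peaks to a −log10 q of at least the median of the list (7.26) left 862, of which 88.5% were open in an embryonic Ctrl list. Of 343 near genes tested there, 59 (17.2%) were higher and 32 (9.33%) lower, beside 17.1% and 8.14% over all genes. A −log10 q of at least 10 left 204, with 90.2% open, and of 87 near genes tested 14 (16.1%) were higher and 8 (9.2%) lower. The share open was 38.2% for gained peaks with no Liver Ctrl peak within 500 bp, 49.6% where a Liver Ctrl peak had to cover at least 0.5 of the peak, 38.9% where the embryonic peak had to cover at least 0.5 of the gained peak and 35.2% against embryonic Ctrl peaks of −log10 q of at least 10. In ranges chosen after seeing the data it was 22.3% under 3, 56.2% from 3 to under 5 and 83.1% at 5 or more. A limit of 10 kb to the start gave 182 near genes higher and 112 lower, from fewer genes tested (17.5% and 10.8%). The nearest gene body, an alternative also chosen after seeing the data, gave 487 and 326 (15.7% and 10.5%).

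Leaving out 1 liver library at a time gave 1978 to 2185 genes called, against 3170, with 237 to 265 near genes higher (main 382) and 119 to 151 lower (main 244); the lone library was assumed to vary like the other groups. Of the near genes lower, every library left out moved the count by over 1.5 times. The replicate numbers did not pair the samples (correlations of -0.0611 to 0.107 over 15 pairs of groups), and the fit with the replicate block called 379 near genes higher and 234 lower, and 3096 genes in all. Of the 37 named genes called, 26 kept their call in every alternative and none changed sign. Calls were lost by Alas2, Apoa1, Egfl7, Flt1, Gata2, Hgf, Kdr, Meis1, Ski, Tgfbi and Wnt9b, each in at least 1 alternative. Limma-voom on the recovered reads called 356 near genes higher (15.6%) and 248 lower (10.8%). Over all 12546 genes it called 2000 higher and 956 lower. One combined list per group and unknown ATAC-seq depth limit all peak counts, since a weak peak missing from a list may lie just under its threshold.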
